A study of Homo sapiens with 4 samples.

Results

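Long single-exon m6A peaks were examined in MDA-MB-231, an established cell line of human triple negative breast cancer. A peak was taken when it was listed as 1 uninterrupted block of at least 1000 bases on a protein-coding gene of the nuclear genome. Of the 20261 peaks in the list, 367 on 345 genes met this rule, and merging peaks of the same gene that overlapped left 366 regions. Single-block peaks on protein-coding genes, from which they were drawn, numbered 14080 on 7344 genes, so the rule kept 2.61% of these peaks and 4.7% of these genes. The regions were thus chosen by peak length and block count, which come from the comparison of IP with input. Length, score, strand and position in the list are therefore given as descriptions, with no test.

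The list was made from 4 libraries of poly(A) RNA, 2 of input RNA and 2 of fragments pulled down (IP) with an anti-m6A antibody, m6A being N6-methyladenosine. All were titled shNS, and the labels name no other treatment of the cells. For the IP libraries the treatment entry reads IP-YTHDC1, but the titles and the protocol give m6A-seq with an m6A antibody, which was followed. The list holds 1 score per peak for all libraries together, with no reads, fold enrichment or value per replicate, so the depth behind a peak and the spread between replicates are unknown. Among markers of the line, VIM had 1 peak, EGFR 2, ERBB2 3 and CD44, ESR1 and PGR none, but a peak list holds no expression and cannot check the identity of the cells.

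m6A is written on pre-mRNA as it is transcribed, mostly in the sequence RRACH (R is A or G, H is A, C or T). In mRNA it is known to lie mainly near stop codons, in 3′UTRs and in long internal exons, and to be sparse close to splice junctions, where the exon junction complex sits. Long exons, last exons and genes without introns therefore hold much of the mRNA sequence that is far from any junction. Peaks reached by antibody capture of RNA fragments are wide, and a long one may cover many methylated sites that were not resolved.

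Base sequence was at hand only for the start of some regions. Of the 366, 12 began exactly at the 5′ end of their RefSeq gene, among them JUN, KCTD12, CCDC8, CSTF2T, MAF and SEPHS2, and the RefSeq promoter sequences (GRCh38.p14) give their first 30 transcribed bases. RRACH was searched on the transcribed strand only, as GGAC or AGAC or GAAC or AAAC followed by A, C or T. RRACH was present in 4 of the 12 windows (33.3%), against 24.1% of the same window in 15843 protein-coding genes. The 4 windows, all inside a long region, are shown 5′ to 3′ with the RRACH match in capitals, since they are the candidate methylation sequences that could be read. A match does not show a methylated base, and these 30 bases are a small part of each region.
TBCC (chr6:42746074-42746103, minus strand): aAGACAagagagaggaagcttgaagccaat
TSPYL4 (chr6:116254046-116254075, minus strand): gggcagagctcggccgctgcggaGGACAag
BORCS6 (chr17:8190151-8190180, minus strand): ggggcGAACCaattcctccgttgcggcccc
CCDC71L (chr7:106661129-106661158, minus strand): aagagaggagaagaaagagAAACCaggggg

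The 366 regions ran from 1010 to 3357 bases, with a median of 1231 bases, a lower quartile of 1107 and an upper quartile of 1499. At least 1500 bases were covered by 91 regions, at least 2000 by 25 and at least 2500 by 7. Together the regions covered 499159 bases, and the long peaks held 12.1% of all bases in single-block peaks on protein-coding genes. The peaks just inside the limit were those of NKX2-5 (1010 bases), KCNK5 and S1PR5 (1013 bases each), and among the nearest just outside were those of NPLOC4 and RALGDS (991 bases each). Scores of these peaks ran from 4e-39 (KCNK5) to 1e-278 (RALGDS).

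The longest regions were in PLEC and MKI67. PLEC encodes plectin, which links intermediate filaments to other parts of the cytoskeleton, and its longest region was the 3357 bases already noted as the maximum, with a score listed at 0. MKI67 encodes Ki-67, the proliferation marker that coats mitotic chromosomes, and its longest region covered 3324 bases (chr10:128106035-128109358, minus strand, score 1e-217). Next came GPRIN1 (2893 bases, score 1e-132), AHDC1, an AT-hook DNA-binding protein (2876 bases, 1e-102), and C6orf132 (2753 bases, 1e-115). PURB, which binds purine-rich single-stranded nucleic acid (2608 bases, 1e-250), and CCDC8, a subunit of the 3M complex (2547 bases, 1e-213), followed. The list of the 10 longest closed with KCTD12, an auxiliary subunit of GABA-B receptors (2457 bases, listed at 0), RTL6, a gene derived from a retrotransposon Gag (2455 bases, 1e-106), and FBXO46, an F-box protein (2331 bases, listed at 0). All 10 genes are on the minus strand.

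The score is the authors' deposited value and was read as a p-value of IP against input, although the file header names neither a p-value nor an FDR. A score of 0 was taken as too small to be stored and drawn at a −log10 of 323. It was listed for 58 of the 366 regions (15.8%, 95% Wilson interval 12.5 to 19.9%), where 1.99% of all single-block peaks on protein-coding genes had it. A score at or under the median of the whole list was reached by 365 regions, against 48.8% of single-block peaks. The exception was a region of CDK2AP1 with a score of 7.8e-07, which lay wholly past the 3′ end of its RefSeq gene and shared 584 bases with a peak of MTRFR on the opposite strand. The next largest scores were 5.2e-10 in BCL7C and 2.1e-10 in MORN1. Over all regions the median −log10 score was 134, with quartiles of 68.0 and 240. In the plot of length against score, the regions listed at 0 run along the top at most lengths.

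**Figure D1:**
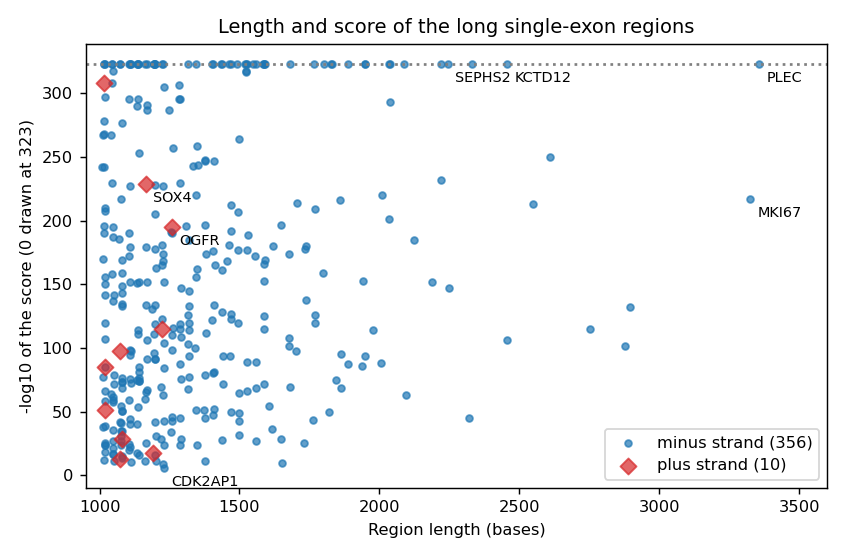
Length in bases (x axis) against −log10 of the score (y axis) for the 366 regions, minus strand as circles and plus strand as diamonds, with scores of 0 drawn at the dotted line at 323. The 10 plus-strand regions lie between 1016 and 1259 bases, and every longer region is on the minus strand.

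By strand, 356 regions were on the minus strand and 10 on the plus strand, a minus-strand share of 97.3% (95% Wilson interval 95.04 to 98.51%). Of single-block peaks on protein-coding genes, 70.6% were on the minus strand, and of 15843 protein-coding genes with a RefSeq promoter sequence, 49.0% were. For 279 of the genes with a region, the RefSeq table gave a strand, and it was that of the list in all 279. The minus-strand share was 63.7% for peaks under 100 bases and 60.5% for those from 100 to under 200 bases, and it was higher in each longer class. It was 80.4% from 300 to under 500 bases, 94.4% from 750 to under 1000, 96.4% from 1000 to under 1500 and 100% for the 91 peaks of 1500 bases or more. Score moved with length on both strands: from 300 to under 500 bases the median −log10 score of plus-strand peaks was 11.7 and that of minus-strand peaks 25.7, and from 1000 to under 1500 bases these were 91.4 and 123. A strand difference over the whole list thus moved with the lengths, and its part in which genes had a region was not tested. What follows describes mainly minus-strand genes.

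**Figure D2:**
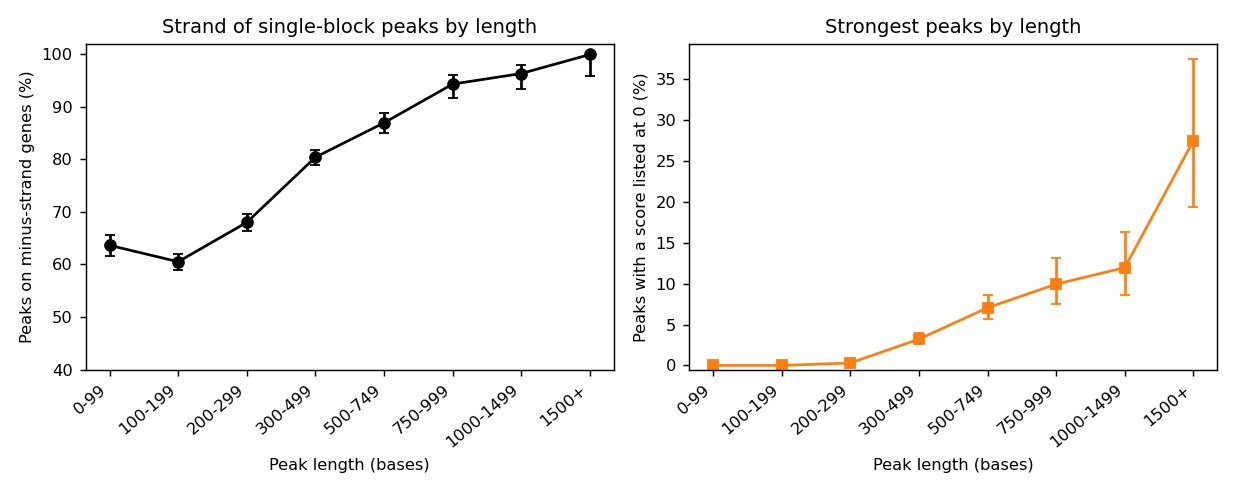
Share of single-block peaks on protein-coding genes that lay on the minus strand (left) and that had a score listed at 0 (right), in %, by peak length in bases, with 95% Wilson intervals. The minus-strand share is 63.7% in the shortest class and 100% in the longest, and the share listed at 0 rises from 0% to 27.5%.

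The plus-strand regions were shorter, with a median of 1077 bases against 1255 on the minus strand, and none was listed at 0. OGFR, the opioid growth factor receptor, had the longest (chr20:62812473-62813731, 1259 bases, score 1e-195). PWWP2B had 1190 bases (5e-18). SOX4, an intronless SOX transcription factor, had 1166 bases (1e-229), POU3F2, a neural POU factor without introns, 1080 bases (2e-29), and IER5, an immediate early gene, 1073 bases (1.6e-98). MGAT2, a Golgi glycosyltransferase, had 1073 bases (3.2e-13), KLC1, a kinesin light chain, 1020 bases (7.9e-86), FOXK2 1020 bases (4e-52) and COG1, a Golgi tethering subunit, 1016 bases (1e-308). Of the 10, 3 shared most of their length with a minus-strand peak. KLC1 shared 1013 bases with XRCC3 (3.2e-86), COG1 shared 1016 with FAM104A (1e-307) and MGAT2 shared 1070 with ENSG00000258377, which had the same score. The list does not say to which gene of each pair the signal belongs, and the KLC1 region lay wholly past the 3′ end of the RefSeq gene.

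On the minus strand, 34 regions overlapped a plus-strand peak. In all, 37 of 366 regions (10.1%, 7.42 to 13.6%) overlapped a peak on the other strand, against 7.45% of single-block peaks. Since 1 shared base is enough, this share depends on peak length and so on the rule. It was 5.87% for single-block peaks under 100 bases and 9.26% for those from 750 to under 1000. The 37 regions formed 38 pairs, and in 14 of them the log10 scores of the partners differed by at most 10%. In 1 more, TSPYL1 with DSE, both scores were listed at 0 and could not be compared. The partner was shorter than 500 bases in 20 pairs, as for SEMA6A, a semaphorin, where SEMA6A-AS1 had 90 bases and a much larger score (0.00012 against 1e-197). In 7 pairs, counted by gene, at least 90% of a region was shared. Beside the 3 plus-strand regions they were MTSS2 with ENSG00000279569, RAPH1, a regulator of the actin cytoskeleton, with ABI2, TRIM52 with CTC-338M12.4 and KCTD21 with KCTD21-AS1. For these the gene of origin is uncertain. On the same strand, 17 regions shared bases with a peak of another gene ID, such as CCPG1 with the read-through gene DNAAF4-CCPG1 and PTCD1 with ATP5MF-PTCD1. All 17 are uncertain in the same way, and 5 of them were also among the 37.

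Exons were not mapped here. The place of a region was given on the genomic span of its RefSeq gene, introns included, and exon borders were read where the list itself shows one, as a gap between blocks of another peak of the same gene. Such gaps were listed for the genes of 95 regions (26.0%). In 54 regions a junction was listed only upstream, in 21 only downstream and in 12 on both sides. In 8 the gene's junctions were listed on neither side. For 271 regions the list shows no junction in the gene, which does not mean that the gene has no intron.

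Of the 366 regions, 358 lay wholly inside the RefSeq span of their gene. They were divided into 63 regions that covered at least 20% of the span, 184 others that ended within 5000 bases of the gene's 3′ end, 24 others that began within 5000 bases of its 5′ end, and 87 interior regions. The remaining 8 reached past the span. The limits of these classes were chosen after the values had been seen.

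**Figure D3:**
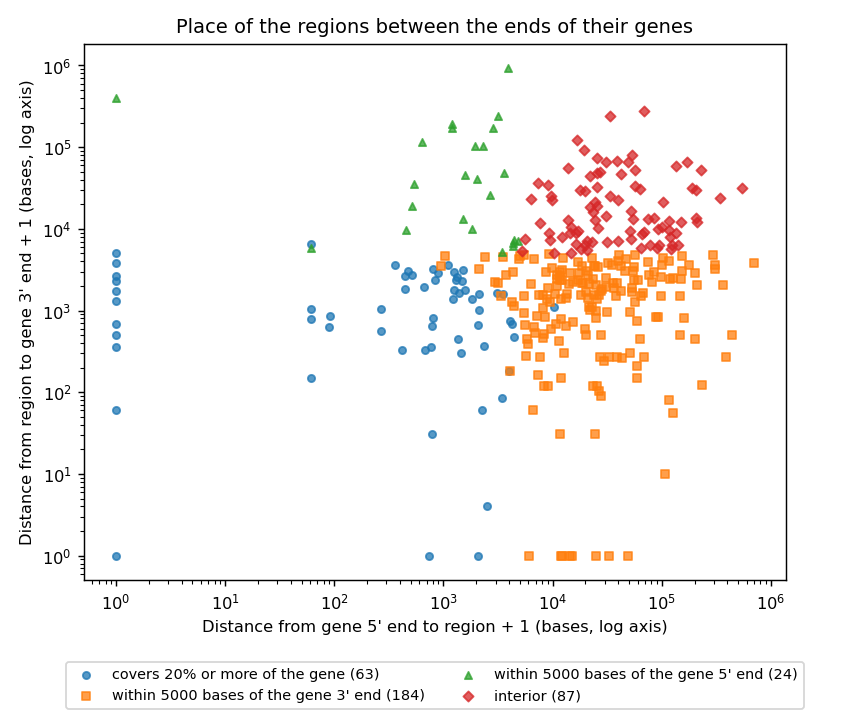
Distance in bases from the 5′ end of the gene to the region (x axis) and from the region to the 3′ end of the gene (y axis), each plus 1 and on a log axis, for the 358 regions inside their RefSeq gene span, by class. The 63 regions that cover at least 20% of their gene lie mostly at the lower left, and the 87 interior regions lie at the upper right.

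The first class held short genes, with a median span of 4110 bases. In 54 of these 63 regions the list showed no junction in the gene, 21 regions (33.3%) were listed at 0, and 58 were on the minus strand. Over all single-block peaks inside their gene, 1.60% covered at least 20% of the span, a measure that grows with peak length and so with the rule. SEPHS2, a selenophosphate synthetase that is itself a selenoprotein, was covered from end to end (chr16:30443631-30445874, 2244 bases, listed at 0), and this was its only peak. RNF113A, a spliceosomal RING finger protein, was covered over 95.2% of its span (1199 bases, 1e-178), MAGEF1 over 87.7% (1492 bases, listed at 0), CCDC8 over 78.7% and TBCC, a tubulin folding cofactor, over 77.8% (1249 bases, 1e-287). At least 50% was covered in 16 of the 358 regions (4.47%, 2.77 to 7.14%). Among them were BORCS6, a subunit of the lysosome-positioning BORC complex (1333 bases, 1e-243), GAS1, a Hedgehog co-receptor (2187 bases, 1e-152), FRAT2, a GSK3-binding activator of Wnt signalling (1519 bases, listed at 0), and TAF7, a subunit of TFIID (1550 bases, listed at 0).

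A list of 37 genes known to lack introns was looked up beside this class. A peak was listed for 31 of them, and none had a peak of more than 1 block. Of these 31 genes, 9 had a long region, 6 of the 13 on the minus strand and 3 of the 18 on the plus strand. Over all genes with a single-block peak 4.7% had one, 7.02% on the minus strand and 0.389% on the plus strand, and the list was chosen with earlier results known. JUN, the AP-1 subunit, had 1524 bases from the 5′ end of its gene (chr1:58782524-58784047, listed at 0), CEBPA, a C/EBP transcription factor, 1495 bases (1e-177) and FOXD1, a forkhead factor, 1197 bases (5e-92). IRS4, an insulin receptor substrate, had 1949 bases (listed at 0), and PURB, KCTD12, SOX4, POU3F2 and IER5 complete the 9. Others fell short of the limit, such as SOX12 (986 bases, 6.3e-82), JUND (980 bases, listed at 0), IER2 (898 bases) and IER5L (865 bases), both immediate early genes, JUNB (601 bases) and CEBPB (268 bases). The gene RHOB, a small GTPase, had 3 peaks, the longest of 331 bases. A gene without introns thus did not always have a long region.

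Regions near the 3′ end were the largest class (184 regions, 50.3%). Whatever their cover, 68.4% of the 358 regions ended within 5000 bases of the gene's 3′ end, against 58.5% of all single-block peaks inside their gene. Most of these single-block peaks thus lay there too. In this class the median length was 1200 bases, 25 regions were listed at 0, and a junction was listed upstream for 37 and downstream for 4. Most of the 40 regions in genes with a listed junction therefore lay beyond the last one the list shows. CREBBP, a histone acetyltransferase, had 2010 bases ending 2460 bases before the 3′ end of a span of 156 kb (chr16:3727514-3729523, score 1e-220), with junctions listed upstream only. NOTCH2, a Notch receptor, had 1289 bases (1e-230) ending 3087 bases before the end of its gene, and SLC9A3, a sodium/proton exchanger, 2218 bases (1e-232) ending 300 bases before it. The SLC9A3 region shared 839 bases with a peak of EXOC3 on the other strand and also overlapped PP7080 on its own. SPRY4, a feedback inhibitor of receptor tyrosine kinases, had 1410 bases (1e-247), and ERRFI1, an inhibitor of EGFR, 1225 bases (listed at 0). PLEC had its longest region here, 2391 bases before the 3′ end.

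Of the 358 regions, 11 (3.07%) ended exactly at the 3′ end of the RefSeq gene, against 2.21% of all single-block peaks inside their gene. Exactly at the 5′ end began 12 regions (3.35%), against 2.67% of these peaks. The median distance from a region to the 3′ end was 2515 bases, against 3403 bases for all single-block peaks. It was taken from the 3′ edge, so a longer peak with the same midpoint has a smaller distance. The median gene spans also differed, at 26295 and 34398 bases. By midpoint, 33.8% of regions (29.1 to 38.8%) lay in the final 10% of the span, 18.7% in the 10% before it and 4.47% in the first 10%. For all single-block peaks the shares were 41.5%, 12.9% and 12.3%. The share in the final 10% was 28.9% for peaks of 1500 bases or more and 44.7% for those from 750 to under 1000 bases. A peak that covers more than 20% of its gene span cannot have its midpoint in the first or final 10%. At least 20% was covered by 17.6% of the 358 regions and by 1.60% of all single-block peaks. The shares by midpoint thus depend in part on the length rule and do not show that long peaks avoid the gene ends.

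The 87 interior regions, 86 of them on the minus strand, lay in 80 genes, and the median span of their genes was 70302 bases. They were 24.3% of the 358 regions, where 28.2% of all single-block peaks lay more than 5000 bases from both gene ends. A junction was listed upstream for 25 and downstream for 25, including 10 with both. The pair in MKI67, of 2036 and 3324 bases, lay 269 bases apart with a junction downstream and none between, so that 5629 bases without a listed junction were nearly all covered. AHDC1 had regions of 2876 and 1378 bases, 479 bases apart, also with no listed junction between. KMT2D, the histone H3 lysine 4 methyltransferase, had a region of 1321 bases (chr12:49037512-49038832, score 1e-120) at 54.1% of its span, with junctions on both sides. BCOR, a transcriptional corepressor (1676 bases, 1e-174), and ZNF608 (1559 bases, 5e-90) likewise had junctions on both sides. ADAR, the A-to-I editing enzyme, had 1590 bases (listed at 0) with a junction downstream, and TNKS1BP1, a tankyrase-binding protein, 2035 bases (listed at 0) with a junction upstream. PKD1, which encodes polycystin-1, had 1861 bases (1.3e-69) at 53.4% of its span.

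Near the 5′ end there were 24 regions, all on the minus strand, with 2 listed at 0. A junction was listed downstream for 4 and upstream for none. SMG6, an endonuclease of nonsense-mediated decay, had 1587 bases (1e-125) that began 3178 bases into a gene of 244 kb, and BCL2, the anti-apoptotic factor, 1378 bases (7.9e-12) that began 1189 bases into one of 197 kb. Both had a junction downstream. MAF, a bZIP transcription factor, had 1317 bases from the first base of its RefSeq gene (1.3e-68).

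**Figure D4:**
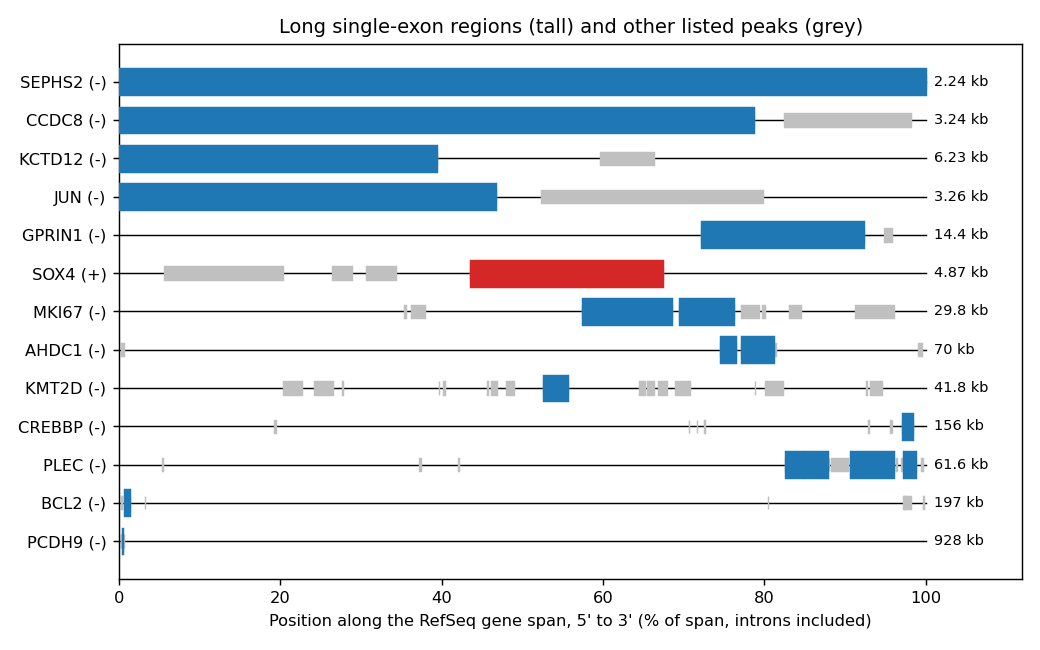
Long single-exon regions (tall boxes, blue on the minus strand and red on the plus strand) and blocks of all other listed peaks (grey) along 13 genes, drawn 5′ to 3′ in % of the RefSeq gene span with introns, and the span in kb at the right. SEPHS2 is covered throughout, the MKI67 and KMT2D regions lie inside the gene, those of CREBBP near the 3′ end, and those of BCL2 and PCDH9 at the 5′ end.

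More than 1 long region was found in 18 genes, all on the minus strand, with 39 regions in all. PLEC had 4, of 1020, 3357, 1889 and 1290 bases (7556 bases in sum), and 2 of them were listed at 0. ANKRD11, an ankyrin repeat protein that acts as a nuclear co-regulator, had 3 (3633 bases in sum), and 16 genes had 2. After MKI67 and AHDC1, the longest sums were in MICAL3, an actin-oxidising enzyme (3059 bases), ZNF518B (2791 bases), ZNF629 (2698 bases) and SEC16A, a scaffold of ER exit sites (2668 bases). The smallest gap between neighbouring regions had a median of 523 bases over the 18 genes, and was 58 bases in PIP5K1C and 149 bases in CELSR1. In 3 of the 18 genes the list showed a junction between the outer regions.

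Over the regions, the gene had a median of 3 listed peaks, and a gene with several regions counted more than once. The whole list held 20261 peaks on 10140 gene IDs, noncoding genes included, which is not a like measure. The only peak of their gene was a long region in 65 cases (17.8%). In 290 regions (79.2%) the region held the smallest score of its gene, and long regions made up a median of 73.4% of the peak bases of their gene. For the 65 only peaks both are fixed in advance. The share of bases also grows with peak length and so with the rule, and score moved with length. These shares were not computed for all single-block peaks and are no trait of the regions. AHNAK, a giant scaffold protein, had 22 peaks, of which 1 was a long region, with 1261 bases (1e-257). AHNAK2 had 27 peaks and 1 region of 1469 bases (1e-192).

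Gene families were counted by symbol, with the share of their genes with a single-block peak that had a long region set beside the 4.7% of all such genes. By strand that share was 7.02% (minus) and 0.389% (plus), but family shares were not split by strand. Minus-strand genes were 11 of 24 among AP-1, C/EBP and immediate early factors and 100 of 141 among solute carriers. The part of strand in the family shares was not tested. Of 345 genes, 268 belonged to none of the 16 families. C2H2 zinc finger and BTB factors, which bind DNA through arrays of zinc fingers often encoded by a single long last exon, had the most, 26 of 386 genes (6.74%, 4.64 to 9.69%), all on the minus strand. ZFP62 had the longest region of these 26 (1859 bases, 1e-216), and none of their regions was listed at 0. The symbols searched left out other C2H2 factors with a region, such as SALL2, MECOM, BCL11A, GFI1 and PATZ1. The PATZ1 region (1198 bases) was listed at 0, so these values do not describe all such factors. ZFP36L2, an RNA-binding decay factor with CCCH fingers, was caught by the same symbol pattern. BTB/Kelch and KCTD adaptors, substrate receptors of cullin ligases or channel subunits, had 8 of 43 genes (18.6%, 9.74 to 32.6%): after KCTD12 came KLHL9 (1735 bases, 1e-178) and KLHL11 (1589 bases, 1e-115), with KBTBD2, KBTBD6, KBTBD7, KCTD21 and KLHL21 between 1048 and 1168 bases. ENC1, a BTB/Kelch protein that the symbols searched left out, also had a region (1556 bases, 1e-172).

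Cadherins of the protocadherin, FAT and CELSR groups, adhesion proteins with a long extracellular part, had regions in 5 of 14 genes (35.7%, 16.3 to 61.2%). Their regions lay early in the gene, at a median of 1.52% of the span. CELSR1 had 1500 and 1111 bases (1.6e-65 and 1.6e-73), beginning 1200 and 2849 bases into a gene of 176 kb, PCDH19 1198 bases (1e-16) at 1.03% of its span and PCDH9 1111 bases (2.5e-98) at 0.482% of 928 kb. FAT1 had 1081 bases (5e-74) at 12.5%, with a junction downstream. The region of PCDH20 (1016 bases, 1.6e-12) lay at 55.9% of a short gene and shared bases with a peak of ENSG00000197991.

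SOX, FOX, TBX and some homeobox factors (HOX, POU, MEIS and others) had regions in 8 of 92 genes (8.70%, 4.47 to 16.2%), 4 on each strand. The symbols searched left out other homeobox genes, of which NKX2-5, NKX6-1 and SHOX2 had a region, so this is not the share of homeobox genes. FOXA2, a pioneer factor, had the longest (1765 bases, listed at 0). AP-1, C/EBP and immediate early factors had 3 of 24 genes, JUN, CEBPA and IER5, and chromatin regulators 6 of 78 (7.69%), of which CREBBP was the longest. Among giant scaffold proteins the count was 5 of 50 genes with 9 regions, those of PLEC, MKI67, AHNAK, AHNAK2 and MAP4, a microtubule-associated protein. Feedback inhibitors had 3 of 32 genes, SPRY4, ERRFI1 and SOCS3, an inhibitor of JAK-STAT signalling (1041 bases, 1e-267). Wnt, Notch and TGF-β ligands and receptors had 4 of 59 genes, NOTCH2, FZD4, WNT7B and BMP4. CCR4-NOT, TNRC6 and other decay factors had 2 of 23, SMG6 and ZFP36L2, and insulin receptor substrates and docking proteins 1 of 13, IRS4.

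Other families had few or none. Solute carriers had regions in 4 of 141 genes (2.84%, 1.11 to 7.07%), and RING and TRIM ligases in 2 of 77 (2.60%, 0.715 to 8.98%), RNF113A and TRIM52. The symbols searched left out other RING proteins, of which MID1, SIAH1, TOPORS, MEX3A, MEX3C and MEX3D had a region. The 2.60% is thus not the share of RING proteins. Histones had a region in 1 of 11 genes, H2AX (1196 bases, listed at 0), and it ran past the 3′ end of the RefSeq gene. No long region was found in 39 integrin, collagen and laminin genes with a single-block peak, for which the interval reaches 8.97%, or in 15 m6A writers, erasers and readers, where it reaches 20.4%. Families were found by symbol and are not complete, and the intervals count genes as independent and cover counting error only.

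**Figure D5:**
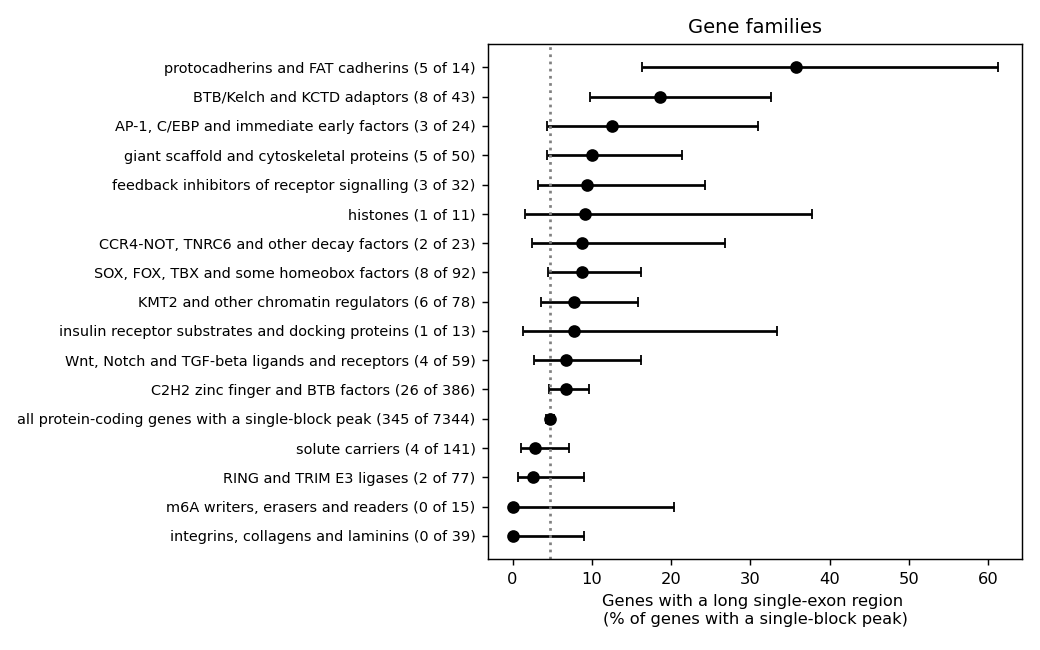
Share of genes with a single-block peak that had a long single-exon region (x axis, in %), by gene family, with 95% Wilson intervals and the counts in brackets. The dotted line is the 4.70% of all 7344 protein-coding genes with a single-block peak, and the families, found by symbol, run from 0% to 35.7%.

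Regions were listed on 23 chromosomes, from 1 on chromosome 21 to 34 on chromosome 1. Chromosome 19 held 25 of the 366 (6.83%, 4.67 to 9.89%), against 8.44% of single-block peaks and 7.23% of RefSeq protein-coding genes. The 10 plus-strand regions lay on chromosomes 1, 6, 10, 14, 17 and 20.

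Of the genes that the study discusses, 4 were looked up, and none of these had a long single-exon region. TGFB1, the ligand of the pathway, had a peak of 955 bases, listed at 0. The longest single-block peak was 271 bases in SMAD3, the transcription factor activated by TGF-β, 150 bases in SNAI1, an EMT transcription factor, and 61 bases in YTHDC1, the nuclear m6A reader.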

How the data were processed

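Per the labels and the study's methods, library preparation kept strand, and the authors aligned reads of 2 input and 2 IP libraries with STAR to the GENCODE v33 transcriptome (hg38), called peaks with exomePeak at default settings, filtered them by fold enrichment and FDR, and deposited 1 list. Its score is a deposited p-value or FDR. The header does not say which. Gene symbols were matched by Ensembl ID (10103 of 10140 IDs) and biotypes and spans by RefSeq symbol on GRCh38.p14 (9158 IDs, 65 of them through an older symbol). Overlap means at least 1 shared base. Intervals are 95% Wilson intervals (statsmodels 0.14.6), which count each peak or gene as independent and so describe counting error alone. The functions for merging, overlap and placing were tested on simulated data. The members, the families and the list of intronless genes were chosen with earlier results of these data known. Genes named were, by rule, the 10 longest regions on the minus and the 5 longest on the plus strand, genes with several regions, the longest region in each family, intronless genes with a region, the 5 regions covering most of their gene, those nearest to the limit, those with the largest scores and 4 genes the study discusses. Some genes that the rule names are not reported here. Other named genes were chosen after their values were seen. A map of exons, protein sequences and a genome sequence were not used here, so the planned comparison of region length with coding length was not run.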

Additional observations from a re-analysis of the deposited data

How the results depend on the processing

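Requiring at least 1500 bases left 91 regions, all on the minus strand (100%), with 27.5% listed at 0 and 28.9% in the final 10% of the gene span. Requiring at least 800 bases gave 702 regions. Both moves in number follow from the limit itself. The other shares under these limits, and all values under the remaining 7 alternatives, stayed within 1.5 times the count or inside the 95% interval of the share. These 7 were no merging, the first part of the list alone, the longest region of each gene, scores at or under the list median, leaving out overlaps with the other strand, peaks of any block count, and matching by current symbols only, which was chosen after seeing the data. No paired analysis was possible because each peak has a single score made from the 4 libraries at once. For the same reason no replicate could be left out. The comparison of region length with coding length was not run. Depth is not known, so nothing can be said of genes without a long region.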
